A study of Mus musculus with 6 samples.

Results

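The family of miR-148a, miR-148b and miR-152 comprises 3 mouse miRNA genes, Mir148a, Mir148b and Mir152, of 1174 hairpins to which reads were matched. Members were chosen by name, as the hairpins whose 3p arms share one seed, and their reads were summed by arm in each sample. All 6 arms had reads in every sample and passed the filter on low counts, which 319 of 974 arms with reads passed. The cells were wild-type C57BL/6 mouse bone marrow monocytes in culture, called BMMs here. They received PBS (Control, 3 samples) or 5 pg/ml lipopolysaccharide (LPS, 3 samples), a surface molecule of Gram-negative bacteria, and the study's methods give a treatment time of 4 h. The labels name DMEM as the medium where the methods name RPMI, and they do not say whether the samples of a group came from separate mice or cultures, so p-values measure only the spread between these samples.

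A miRNA is cut from a hairpin, and either side of the hairpin, the 5p or the 3p arm, can be loaded into an Argonaute protein. The loaded strand pairs with mRNAs mainly through its seed, bases 2 to 8, so paralogs with one seed can address the same messages. miR-148a is known as a regulator of the cholesterol exporter Abca1 in liver, the family is known to act on the DNA methyltransferase Dnmt1, and in dendritic cells it is known to act on the kinase subunit Camk2a. After cutting, enzymes can add U or A to the 3′ end of a miRNA, and such bases do not match the hairpin.

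The mature sequences are shown first because the comparisons of paralogs turn on how alike they are. They are RefSeq entries (GRCm38.p6), printed 5′ to 3′ with bases 2 to 8 in capitals.
miR-148a-3p: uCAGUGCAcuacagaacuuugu
miR-148b-3p: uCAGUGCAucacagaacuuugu
miR-152-3p: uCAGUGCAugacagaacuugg
miR-148a-5p: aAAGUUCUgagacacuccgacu
miR-148b-5p: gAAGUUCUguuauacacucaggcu
miR-152-5p: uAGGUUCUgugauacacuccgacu

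The 3p arms carried the seed CAGUGCA, which stood in 3 of 1738 mature RefSeq entries, these 3. Counted from the 5′ end, miR-148a-3p and miR-148b-3p differed by C9U and U10C and had the same last 12 bases. miR-148b-3p and miR-152-3p differed by C10G and U20G. Among the 5p arms, miR-148a-5p and miR-148b-5p shared the seed AAGUUCU, and miR-152-5p had AGGUUCU. In the reads, the 3p arms of the family were also the only 3 of 974 arms whose main read had the family seed.

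Mir148a lies on the minus strand at chr6:51269812-51269910 (GRCm38.p6), outside annotated genes. Mir148b lies at chr15:103285125-103285221 in an intron of Copz1, and Mir152 at chr11:96850393-96850465 in an intron of Copz2, both on the strand of the host gene. Copz1 and Copz2 encode paralogous zeta subunits of the coatomer, the coat of vesicles that move between the Golgi and the endoplasmic reticulum.

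The samples held 2201520 to 17691405 reads of 11 to 40 nt, of which 61.6% to 71.0% matched a hairpin. LPS replicate 2 stood apart before any result. It had the most reads, and singletons were 18.6% of its distinct sequences, where they were 67.1% to 74.6% elsewhere. Results that rest on it are given with and without it. The myeloid markers, led by miR-22-3p and miR-21a-5p, summed to 352217 to 394960 reads per 1000000 hairpin reads (RPM) in the 6 samples. The others on that list were lower, with miR-223-3p at 5607 to 6089 RPM, miR-142-5p at 18107 to 27085 RPM and miR-142-3p at 3741 to 7757 RPM. The listed markers were thus present throughout, which does not by itself identify the cell type. The erythroid markers summed to at most 1.17 RPM, the muscle markers to at most 0.583 RPM, the liver marker to at most 1.83 RPM, the endocrine marker to at most 2.01 RPM and the neural markers to at most 3.34 RPM, where 3 reads in the shallowest sample correspond to 2.00 RPM. miR-144-3p, miR-145a-5p, miR-1a-3p, miR-206-3p and miR-124-3p had no reads. The mesenchymal markers summed to 6.00 to 12.0 RPM and those of megakaryocytes and endothelium to 33.8 to 50.3 RPM.

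miR-148a-3p was the most abundant member in all 6 samples. It was at 3977, 3075 and 3557 RPM in control replicates 1, 2 and 3, and at 4106, 2639 and 3548 RPM in LPS replicates 1, 2 and 3. The groups overlapped, with the highest and the lowest value both in the LPS group. Its mean of 3536 ± 451 RPM (SD, n = 3) in controls and 3431 ± 740 RPM (SD, n = 3) with LPS placed it at rank 35 of all arms by mean level.

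miR-148b-3p stood close below it, at rank 44. Its levels were 2478, 2238 and 2380 RPM in the control samples and 2702, 1957 and 2503 RPM in the LPS samples. Here too LPS replicate 1 was highest and LPS replicate 2 lowest, around control values that lay close together. The means were 2365 ± 120 RPM (SD, n = 3) and 2388 ± 386 RPM (SD, n = 3).

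miR-152-3p, the minor paralog, was at 119.7, 95.1 and 150.9 RPM in the control samples and at 138.9, 724.1 and 160.1 RPM in the LPS samples. LPS replicate 2 was 4.80 times the highest control, while LPS replicate 1 lay within the control range and LPS replicate 3 just above it. The means were 121.9 ± 28.0 RPM (SD, n = 3) in controls and 341.0 ± 331.9 RPM (SD, n = 3) with LPS. Of the 319 arms tested, 12 (3.76%) reached at least 4 times the highest control in LPS replicate 2, and miR-152-3p was 1 of them.

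The 5p arms were minor or equal partners of the 3p arms. miR-148a-5p was at 39.1, 38.5 and 41.8 RPM in the control samples and 42.3, 31.4 and 45.4 RPM in the LPS samples. miR-148b-5p was at 116.1, 142.4 and 124.3 RPM in controls and 122.8, 115.2 and 118.1 RPM with LPS. miR-152-5p was at 111.4, 99.8 and 124.7 RPM in controls and 102.6, 65.6 and 107.4 RPM with LPS. LPS replicate 2 gave the lowest value of all 3 arms. It was the lowest of the 6 samples for 89 of all 319 arms (27.9%). Outside LPS replicate 2 the levels of miR-152-3p, miR-148b-5p and miR-152-5p overlapped, so their order was not set, whereas miR-148a-3p, miR-148b-3p and miR-148a-5p each stood clear of their neighbours in every sample.

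**Figure D1:**
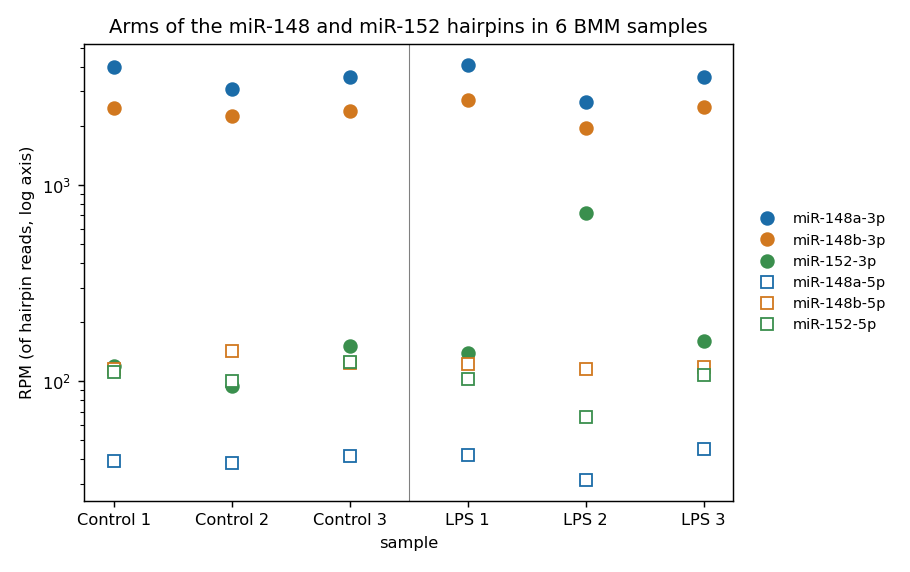
Level of each arm in RPM of hairpin reads (log axis) in the 6 samples, filled circles for 3p arms and open squares for 5p arms. miR-152-3p stands at 724.1 RPM in LPS replicate 2 and between 95.1 and 160.1 RPM in the other 5 samples, and no other arm of the family is above its control range there.

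Together the 6 arms held 0.684%, 0.569% and 0.638% of the hairpin reads in the control samples and 0.721%, 0.553% and 0.648% in the LPS samples. Within the 3p reads of the family, miR-148a-3p made up 49.6% to 60.5%, miR-148b-3p 36.8% to 41.4% and miR-152-3p 1.76% to 2.58% in 5 samples. In LPS replicate 2 the share of miR-152-3p was 13.6%. Among all reads of at least 18 nt with the family seed at bases 2 to 8, 0.832% to 1.04% matched no hairpin under the rule and at most 2 reads a sample came from another hairpin.

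To ask whether low-dose LPS was accompanied by a change of the family, LPS and control samples were compared by edgeR's quasi-likelihood test over 319 arms. With LPS, 0 arms were higher and 0 lower at a Benjamini-Hochberg adjusted p under 0.05 (0% of all arms in each direction), none of the family among them. Before adjustment, 7 arms (2.19%) had a p under 0.05 with a higher level and 1 (0.313%) with a lower level, and no family arm was among them. DESeq2 and limma-voom called 0 arms as well. The log2 fold change was -0.07 (SE 0.21) for miR-148a-3p, -0.01 (SE 0.16) for miR-148b-3p and 1.47 (SE 0.65) for miR-152-3p, each with an adjusted p of 0.994 from edgeR. For the 5p arms it was -0.04 (SE 0.20) for miR-148a-5p, -0.13 (SE 0.16) for miR-148b-5p and -0.31 (SE 0.23) for miR-152-5p, with the same adjusted p. The median of the 6 arms was -0.05, beside 0.00 over all arms. In no family arm did all LPS samples lie on one side of all control samples, which 6 arms (1.88%) showed upward and 4 (1.25%) downward.

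The value of miR-152-3p, with an unadjusted p of 0.0611 from edgeR and 0.0100 from DESeq2 (adjusted p = 0.999), rested on LPS replicate 2. Without that library it was 0.24 on the log2 scale (edgeR adjusted p = 0.998), with the replicate number as a block it was 1.00 (adjusted p = 0.852), and without the count filter it was 1.48 at an adjusted p = 1.11e-07, again by edgeR. In that last fit 21 arms were called higher and 0 lower. Without LPS replicate 2 the fold changes of miR-148a-3p, miR-148b-3p and miR-148a-5p were 0.07, 0.09 and 0.09, above 0 where they were below it with all samples, while miR-148b-5p was at -0.12 and miR-152-5p at -0.14, and none passed the threshold in either fit.

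Levels were next set side by side within each replicate number. In replicate 1, LPS over control was 1.03-fold for miR-148a-3p, 1.09-fold for miR-148b-3p and 1.16-fold for miR-152-3p. In replicate 3 the values were 0.998-fold, 1.05-fold and 1.06-fold. In replicate 2 they were 0.858-fold, 0.874-fold and 7.61-fold. The median absolute log2 difference over all 319 arms was 0.12 in replicates 1 and 3 and 0.37 in replicate 2, so replicate 2 stood apart outside the family as well.

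**Figure D2:**
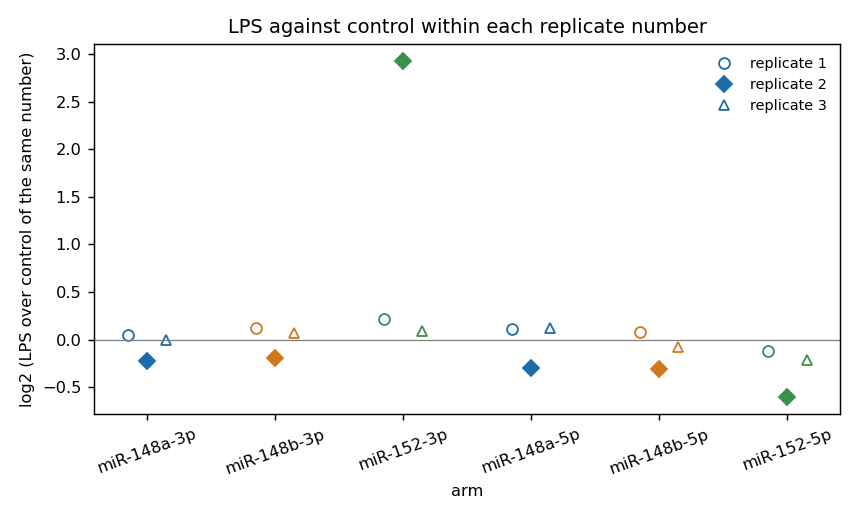
log2 ratio of LPS over control within each replicate number (circles replicate 1, diamonds replicate 2, triangles replicate 3), for each of the 6 arms. All values lie between -0.60 and 0.21 except miR-152-3p in replicate 2, at 2.93.

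Values of other miRNAs moved with miR-152-3p in LPS replicate 2. miR-146a-5p, an LPS-inducible miRNA in macrophages, was at 55427 RPM there and at 2822 to 4515 RPM in the other 5 samples, and miR-155-5p, another, was at 212.2 RPM against 49.0 to 75.3 RPM. Of the 12 LPS-linked miRNAs, 5 were above all other samples there and 3 below, namely miR-212-3p at 0.824 RPM, miR-9-5p at 0.366 RPM and miR-125b-5p at 884.8 RPM. The first 2 of these 3 miRNAs were low in every sample, at 2.33 to 6.00 RPM and 2.11 to 3.34 RPM in the other 5. LPS replicate 2 was the deepest library, so the 2.00 RPM of 3 reads in the shallowest sample is not its floor. Of all 319 arms, 27.9% were lowest in that library, and the share that was highest there is not given here, so these counts are descriptions only. The 6 epithelial markers summed to 167.8 RPM there and to 76.6 to 96.8 RPM in the other 5. In LPS replicate 2, miR-200a-3p, miR-200b-3p and miR-200c-3p were above all other samples at 43.7, 57.9 and 29.6 RPM. miR-141-3p at 20.6 RPM and miR-429-3p at 15.9 RPM lay within the others, and miR-205-5p was at no more than 0.423 RPM in any sample. The lymphoid marker miR-150-5p was at 49.2 RPM against 14.9 to 23.2 RPM. The part of depth, of library make-up or of other cells in the miR-152-3p value was not tested. In bulk samples more cells of a type and more RNA per cell cannot be told apart. Of the LPS-linked miRNAs, 10 were tested by edgeR, of which 6 had a fold change above 0 and 4 below 0, none past the threshold, with a median log2 value of 0.07.

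Paralogs that share a seed were next compared within each sample, since a ratio of reads within a library does not depend on its scaling. miR-148a-3p was 1.60-, 1.37- and 1.49-fold above miR-148b-3p in the control samples and 1.52-, 1.35- and 1.42-fold in the LPS samples. The ratio was above 1 in 6 of 6 samples, and its mean log2 value of 0.54 ± 0.10 (SD, n = 6) differed from 0 in an exact sign-flip test over the samples (two-sided p = 0.0312, adjusted over 3 ratios p = 0.0312, the smallest that 6 samples allow). That test counts the 6 samples as separate units. If samples of one replicate number are pairs, 3 pairs allow no exact sign-flip p under 0.25. The ratio depended on which 3′ ends were counted. With only the most common read of each arm the mean log2 ratio was -0.02 (adjusted p = 0.875 in the exact test), and with reads that match the hairpin to their last base it was 4.59 (adjusted p = 0.0469). How well each sequence ligates to the adaptor was not controlled, and its part in the ratio was not tested.

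miR-148a-3p exceeded miR-152-3p 33.2-, 32.3- and 23.6-fold in the control samples and 29.6-, 3.64- and 22.2-fold in the LPS samples. LPS replicate 2 alone departed from the others. The mean log2 ratio was 4.31 ± 1.22 (SD, n = 6), and miR-152-3p over miR-148b-3p was at -3.77 ± 1.16 (SD, n = 6), both with an exact sign-flip p of 0.0312 before and after adjustment. Without LPS replicate 2 these means were 4.80 and -4.23, where 5 samples allow no p under 0.0625. The limit given above for paired samples applies to these ratios too.

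For none of the 3 ratios did a difference between the groups pass the test. LPS minus control was -0.06 on the log2 scale for miR-148a-3p over miR-148b-3p (exact permutation p = 0.5, adjusted p = 0.5), -1.14 for miR-148a-3p over miR-152-3p (exact permutation p = 0.2, adjusted p = 0.3) and 1.07 for miR-152-3p over miR-148b-3p (exact permutation p = 0.2, adjusted p = 0.3). Without LPS replicate 2 the differences were -0.02, -0.20 and 0.18. These tests were two-sided, and 3 samples against 3 allow no p under 0.1. Within replicate numbers 1, 2 and 3, LPS minus control was -0.08, -0.03 and -0.08 for miR-148a-3p over miR-148b-3p, -0.17, -3.15 and -0.09 for miR-148a-3p over miR-152-3p, and 0.09, 3.12 and 0.01 for miR-152-3p over miR-148b-3p. Each ratio thus had the same sign in 3 of 3 pairs, with an exact sign-flip p of 0.25, the smallest that 3 pairs allow. The ratios are not separate results, since each follows from the others, and some differences were as small as 0.01. The shared signs are a description only.

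The 3 hairpins differed in which arm was found. The 3p reads of Mir148a outnumbered its 5p reads 101-, 78.7- and 84.1-fold in the control samples and 96.4-, 83.8- and 77.1-fold in the LPS samples. Those of Mir148b did so 21.3-, 15.7- and 19.1-fold in controls and 22.0-, 17.0- and 21.1-fold with LPS. Mir152 had nearly equal arms, with 3p over 5p at 1.07, 0.953 and 1.21 in controls and 1.35, 11.02 and 1.49 with LPS. In all 6 samples the order Mir148a, Mir148b, Mir152 was the same. For Mir152 the 3 LPS values lay above the 3 control values, and LPS minus control was 1.39 on the log2 scale (exact permutation p = 0.1, the smallest that 3 against 3 allow, adjusted p = 0.3). The share of all hairpins whose arm ratio separated the groups was not counted, so this separation is a description only. LPS replicates 1 and 3 were each only slightly above the highest control, and without LPS replicate 2 the difference was 0.40 (adjusted p = 0.45, exact permutation test). The differences were -0.03 for Mir148a and 0.10 for Mir148b (adjusted p = 0.7 for both, exact permutation test).

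In LPS replicate 2 the higher level of Mir152 was thus seen in its 3p arm alone. The 5p arm was 0.526 times the highest control there. Of the 12 arms that reached 4 times the highest control in that library, 7 had a partner arm tested under the same hairpin name. The partner was above the highest control in 3 of these 7 and reached 4 times the control in 0. Partners whose names differed because arms were merged were not counted. Of these, miR-24-2-5p was at 1721 RPM there against at most 1370 RPM in controls, and miR-29b-3p at 252.1 against 194.4 RPM. miR-24-1-5p and miR-7-1-3p, at 22.2 and 11.8 RPM, were not above the highest control.

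The paralogs also differed in their 3′ ends. The most abundant reads are printed because the added bases carry this finding. They are given as in the files, with T for U, and capitals mark bases that do not match the hairpin.
miR-148a-3p, mature end: tcagtgcactacagaactttgt
miR-148a-3p, 1 base longer: tcagtgcactacagaactttgtc
miR-148a-3p, 2 bases longer: tcagtgcactacagaactttgtct
miR-148b-3p, mature end, 2 added: tcagtgcatcacagaactttgtTT
miR-148b-3p, mature end, 1 added: tcagtgcatcacagaactttgtT
miR-148b-3p, mature end, 2 added: tcagtgcatcacagaactttgtTA
miR-148b-3p, mature end: tcagtgcatcacagaactttgt
miR-152-3p, mature end: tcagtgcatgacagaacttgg
miR-152-3p, mature end, 1 added: tcagtgcatgacagaacttggA
miR-152-3p, mature end, 1 added: tcagtgcatgacagaacttggT
miR-152-3p, 1 base longer, 1 added: tcagtgcatgacagaacttgggA
miR-152-3p, 1 base shorter, 1 added: tcagtgcatgacagaacttgT

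miR-148a-3p ended mainly on hairpin sequence. The mature sequence made up 42.6%, 38.2% and 46.2% of its reads in the control samples and 43.8%, 45.4% and 45.6% in the LPS samples. A further 37.0% to 43.4% ran 1 base longer and matched the hairpin there, and 6.47% to 7.82% ran 2 bases longer. Reads with bases that the hairpin does not hold were 8.97% to 10.1% of the arm, close together in all 6 samples.

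miR-148b-3p, with the same last 12 bases, was almost always extended. Added bases stood on 95.5%, 96.2% and 94.0% of its reads in the control samples and on 95.4%, 90.3% and 94.1% in the LPS samples. LPS replicate 2 was lowest, and the other 5 lay close together. The read with 2 added U made up 54.8% to 69.0% of the arm and that with 1 added U 13.7% to 21.5%, while the mature sequence made up 2.42% to 7.02%. In every sample the share of reads with added bases was higher in miR-148b-3p than in miR-148a-3p, by 84.7 ± 2.0 percentage points (SD, n = 6, exact sign-flip p = 0.0312, two-sided, the smallest that 6 samples allow). Counting error was small beside this, with 95% Wilson intervals of at most 0.814 points to either side. The sign-flip test of this difference was not planned, since added bases were meant to be described only. It also counts samples taken as pairs as separate units.

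Over all 319 arms tested, the median share of reads with added bases was 15.3%. miR-148b-3p, at a mean of 94.2%, was at rank 9, miR-152-3p at 82.0% was at rank 19, and miR-148a-3p at 9.50% was at rank 218. For a tail of exactly 2 U the median over all arms was 0.307%, and miR-148b-3p had the highest share of all 319 arms, 64.4%. miR-152-3p was at 6.02% and rank 16, and miR-148a-3p at 2.08% and rank 52. Without LPS replicate 2, reads with added bases were 95.03% of miR-148b-3p (rank 7), 87.7% of miR-152-3p (rank 14) and 9.51% of miR-148a-3p (rank 216), and miR-148b-3p kept the highest share of tails of 2 U, 66.3%. Whether these bases were on the RNA in the cells or arose in library preparation was not tested.

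miR-152-3p carried A more often than U in 5 of 6 samples. In the control samples reads with added A only were 40.2%, 41.7% and 36.7% of the arm and those with added U only 26.1%, 27.0% and 29.4%. In LPS replicates 1 and 3 added A was at 39.3% and 42.9% and added U at 28.9% and 30.0%. LPS replicate 2 had 21.7% and 25.1%. The mature sequence made up 7.84%, 6.75% and 8.40% in controls (95% Wilson intervals 5.33% to 11.4%, 3.81% to 11.7% and 5.95% to 11.7%), 7.73% and 5.42% in LPS replicates 1 and 3 (5.58% to 10.6% and 3.19% to 9.05%). In LPS replicate 2 it was 45.4% (44.3% to 46.5%). The intervals cover counting error only. LPS replicate 2 lay far outside all others, whose intervals overlapped.

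**Figure D3:**
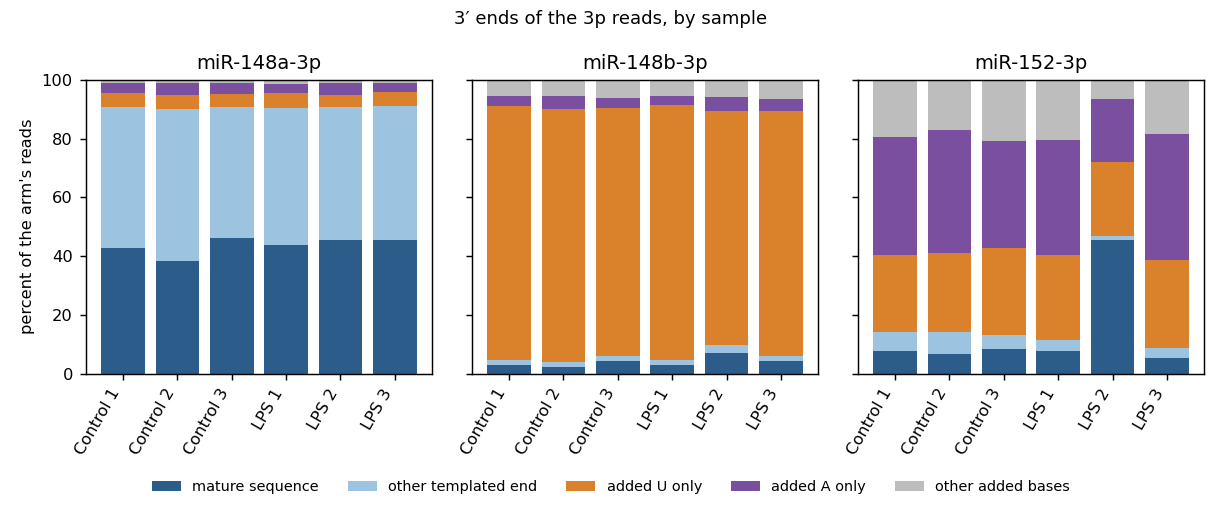
Stacked bars of the 3′ end classes as percent of each 3p arm's reads, for the 6 samples. miR-148a-3p is mostly mature or otherwise templated, miR-148b-3p mostly carries added U (79.8% to 86.8%), and miR-152-3p carries A and U in all samples, with 45.4% mature sequence in LPS replicate 2 and at most 8.40% in the others.

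For the share of reads equal to the mature sequence, no difference between the groups passed the exact permutation test. LPS minus control was 2.59 points for miR-148a-3p, 1.38 points for miR-148b-3p and 11.8 points for miR-152-3p, with adjusted p of 0.75, 0.75 and 0.9. Without LPS replicate 2 the differences were 2.36, 0.201 and -1.09 points. That of miR-148a-3p was 0.522 points without control replicate 2 and 4.50 points without control replicate 3.

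The higher level of miR-152-3p in LPS replicate 2 was not spread evenly over its ends. Reads whose last matching base was the mature end were at 639.5 RPM there, 7.49 times the highest control, against 42.6 to 95.4 RPM in the other 5 samples. Those ending 1 base earlier were at 31.7 RPM against 14.0 to 28.7 RPM, and those ending 1 base later were at 51.0 RPM against 33.6 to 38.7 RPM. The shorter and longer classes were therefore 1.23 and 1.34 times the highest control. Among single reads, the mature sequence was 25.9 times the highest control, at 328.4 RPM. With 1 added U it was 13.9 times and with 1 added A 6.68 times. The mature end with 2 added U was 4.93 times and that with U and then A added 2.63 times. The mature end with 2 added A was only 1.27 times and the read 1 base longer with 1 added A 1.22 times. Since the latter was the most common read over the 6 samples by share, counting it alone gave a log2 fold change of 0.32 (adjusted p = 0.965 from edgeR), and counting reads without added bases gave 2.84 (adjusted p = 0.994).

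**Figure D4:**
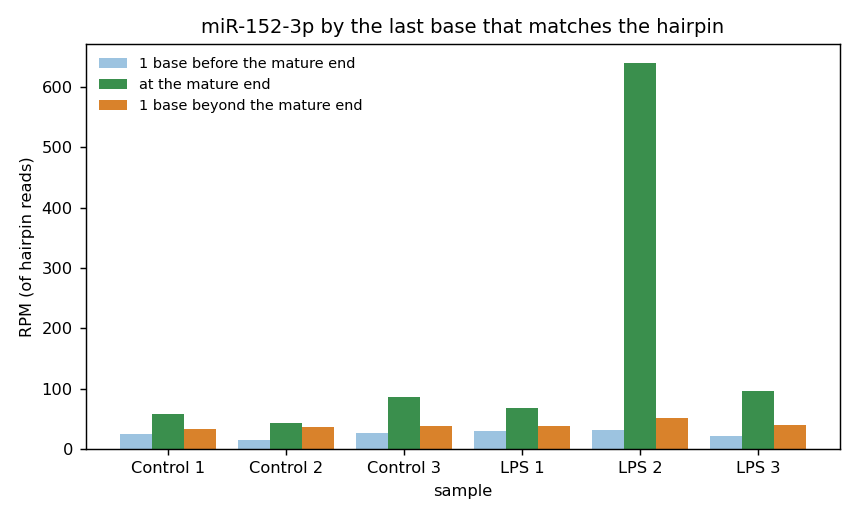
miR-152-3p in RPM of hairpin reads, split by the last base that matches the hairpin, in the 6 samples. The bar at the mature end reaches 639.5 RPM in LPS replicate 2, while the neighbouring ends there stay at 31.7 and 51.0 RPM.

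A lower share of added bases in LPS replicate 2 was found outside the family as well. It was the lowest of the 6 samples for 93 of 319 arms (29.2%), and for 5 of the 12 arms that reached 4 times the highest control there. For some of the 12 the lowest share elsewhere was 0%, so that library could not be lower. The share of arms for which it was highest was not counted. Reads within 1 substitution of the miR-148b-3p sequence made up 0.164% of the reads counted as miR-152-3p in LPS replicate 2, and 0.840% to 3.27% in the other samples. No read of the family matched another arm.

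The 5′ starts were uniform for the 3p arms, 98.9% to 100% of whose reads began at the mature start and so carried the seed as printed. miR-152-5p was the exception among the 6 arms. In controls 29.5%, 29.8% and 35.9% of its reads began 1 base later, and 35.1%, 38.6% and 37.3% did with LPS, which moves the seed by 1 base. The groups overlapped. In miR-148b-5p this share was 3.39% to 7.94%.

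By profile over the 6 samples, the arms most like miR-148a-3p were miR-1839-5p, miR-3068-3p and miR-223-5p, with root mean square differences of 0.044, 0.054 and 0.056 in centred log2 RPM. Those most like miR-148b-3p were miR-26a-5p, miR-223-5p and let-7f-1-3p, at 0.057, 0.060 and 0.075. For miR-152-3p they were miR-200a-3p, miR-324-5p and miR-194-5p, at 0.25, 0.33 and 0.35. The medians over all arms were 0.35, 0.31 and 0.97. The neighbours of miR-152-3p shared its high value in LPS replicate 2, where miR-200a-3p was at 43.7 RPM against 5.25 to 12.7 RPM, miR-324-5p at 388.5 RPM against 41.3 to 62.7 RPM and miR-194-5p at 159.9 RPM against 37.1 to 53.7 RPM. Without LPS replicate 2 they were at ranks 112, 172 and 141 in likeness to miR-152-3p, and the nearest were miR-15b-3p, miR-1981-3p and miR-339-3p, at 0.10, 0.11 and 0.11 where the median over all arms was 0.31. For miR-148b-3p the same 3 arms were nearest, and for miR-148a-3p miR-10a-5p, at 0.039, took the place of miR-3068-3p.

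The longest annotated 3′ untranslated regions (UTRs) of 8 genes reported here were searched on the transcript strand for TGCACTG, the complement of bases 2 to 8 (GENCODE M21, GRCm38). Of the UTRs of 20966 protein-coding genes, 12.6% held a match. Dnmt1 had 1 match, Abca1 2, Bcl2l11 3 and Camk2a 1. No match stood in the UTRs of Dnmt3b, Cdkn1b, Scarb1 or Irak3. Of UTRs within 10% of the same length, 2.65% held a match for Dnmt1, 23.5% for Abca1, 33.8% for Bcl2l11 and 25.9% for Camk2a, beside 14.2% for Dnmt3b, 27.0% for Cdkn1b, 7.50% for Scarb1 and 9.96% for Irak3. The sites of Abca1 and Dnmt1, known targets of the family, are shown with the match in capitals. Those in Abca1 lie on the minus strand at chr4:53033881-53033903 and chr4:53030972-53030994, and that in Dnmt1 on the minus strand at chr9:20907489-20907512.
Abca1, first site: gcgaggtcttccttTGCACTGtg
Abca1, second site: aatggatctattttTGCACTGga
Dnmt1: cccagagccccacgTGCACTGAtg
In Dnmt1 an A follows the match, which extends it to 8 bases, and in Abca1 it does not. Since the match uses only the shared seed, all 3 paralogs fit each site alike there, and mRNA or protein was not measured in these files.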

How the data were processed

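Small RNA of 6 BMM samples (Control and LPS, 3 each, grouped by sample titles) was sequenced from TruSeq small RNA libraries. The authors removed adaptors (custom perl scripts, Btrim64) and deposited the raw count of every distinct read with no miRNA names. Their notes name mm9, but the files hold no coordinates. From 18 nt upward, reads were placed by exact match on 1174 GENCODE M21 hairpins (GRCm38), with up to 3 unmatched 3′ bases allowed. Arms were set by the hairpin midpoint, and arms sharing at least 50% of their reads were merged. RPM is per 1000000 hairpin reads, 1498849 to 10927393 a sample, and the rarest arm, miR-148a-5p, had at least 66 reads.

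Counts of 319 arms past filterByExpr were scaled by TMM and compared in edgeR 4.0.16 (R 4.3.3) by its quasi-likelihood test, after the script was tested on simulated data. The simulated samples varied less than these and held no outlying library, so that run does not show which changes could be detected here. DESeq2 1.42.0 and limma 3.58.1 were alternatives, beside other normalizations, filters and read rules and each sample left out in turn. Ratios and shares were compared by exact permutation or sign-flip tests (Python 3.11.15), with Benjamini-Hochberg adjustment over 3, and a pseudocount of 1 in 3p to 5p ratios and profiles. The correlation over arms of deviations from the group mean was 0.590, 0.258 and 0.278 between samples of one replicate number, and -0.382 to 0.151 otherwise. The numbers in the titles were therefore taken to pair the samples. This is an assumption, since the labels state no pairing. Part of the contrast is built in, because deviations from a group mean cancel within the group. The named arms were the 6 family arms, arms whose main read has their seed, and the 3 nearest profiles of each 3p arm. Others were named after their values were seen. These were miR-146a-5p, miR-155-5p, miR-212-3p, miR-9-5p, miR-125b-5p, the myeloid and epithelial markers and the markers without reads. So were the partners of merged arms and the nearest profiles without LPS replicate 2. Members, lists and tests were chosen with earlier results of these data known. Some genes of the UTR list are not reported here.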

Additional observations from a re-analysis of the deposited data

How the results depend on the processing

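Read counts limit the minor arms most. Counting error alone was 7.83% for miR-152-3p and 12.3% for miR-148a-5p in the sample with fewest reads, against 1.38% for miR-148a-3p. LPS replicate 2 was also the deepest sample, and depth and that library cannot be told apart. Of the alternative values, 205 kept their direction and side of the threshold, 16 turned direction, 19 fell short of the threshold and 2 passed it newly.

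Without the count filter, in the fit with wholly pooled variance, 21 arms were called higher and miR-152-3p passed at 1.48 on the log2 scale. Under any other alternative run 0 arms were called. Log2 fold changes turned above 0 for miR-148a-3p with the main sequence only (0.0050) and for miR-148b-3p with DESeq2 (0.0060), library totals (0.013), no count filter (0.0031) and exact matches only (0.40), none past the threshold. With the main sequence only, the mean ratio of miR-148a-3p over miR-148b-3p turned to -0.015 and its LPS minus control difference to 0.13. With exact matches only, miR-152-3p over miR-148b-3p was -2.30 and missed the threshold. The cause was not tested, beyond the end variants given for each arm.

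Leaving out 1 sample in turn, the log2 fold change ranged from -0.25 to 0.078 for miR-148a-3p, from -0.14 to 0.093 for miR-148b-3p, from -0.13 to 0.090 for miR-148a-5p and from 0.24 to 1.84 for miR-152-3p. The mean log2 ratios ranged from 0.52 to 0.57 for miR-148a-3p over miR-148b-3p, from 4.16 to 4.80 for miR-148a-3p over miR-152-3p and from -4.23 to -3.61 for miR-152-3p over miR-148b-3p, and all missed the threshold because 5 samples allow no exact sign-flip p under 0.0625. The 3p to 5p difference ranged from -0.12 to 0.070 for Mir148a and from -0.019 to 0.22 for Mir148b, and the mature share difference from 0.522 to 4.50 points for miR-148a-3p, from 0.201 to 2.32 points for miR-148b-3p and from -1.09 to 18.9 points for miR-152-3p. With the replicate number as a block, miR-152-3p was at 1.00 and each of the 3 paralog ratio differences had an exact p of 0.25, the least that 3 pairs allow. Added after seeing the data, the block gave an exact p of 0.25 to 0.75 for the 3p to 5p ratios and of 0.5 to 1 for the mature shares. It changed no call in these fits.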
